A study of Mus musculus with 12 samples.

Results

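The SLC25 family of mitochondrial solute carriers was described in Min6 cells, an insulin-secreting mouse beta-cell line grown from an insulinoma. Members were the gene symbols made of Slc25a and a number, and 47 of the 24421 counted symbols met this rule. Of these, 36 had enough reads to be tested and 11 did not. All cells had the genotype given as WT, carried an adenovirus for 48 h and received 0.3 mM palmitate (PA), a saturated fatty acid, for 24 h. The adenovirus held a control hairpin (sh-ctrl, 6 libraries) or a hairpin against Il22ra1, the ligand-binding chain of the interleukin-22 receptor (sh-Il22ra1, 6 libraries). No group lacked palmitate or virus, and all data come from 1 cell line. The treatment field of sh-Il22ra1 replicates 2 to 6 numbers the gene name upward, and these libraries were grouped by title. The labels do not say that the 6 libraries per group came from separate cultures, so p-values reflect the spread among these samples alone, and that spread may be technical.

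The inner mitochondrial membrane is closed to most charged metabolites, and carriers of the SLC25 family move nucleotides, phosphate, organic acids, amino acids, acylcarnitines, cofactors and iron across it. Each carrier is built from repeats of a pair of membrane helices and usually exchanges a substrate on one side for another on the opposite side. In beta cells, ADP/ATP exchange, the malate-aspartate shuttle and citrate export couple glucose oxidation to the signals that release insulin.

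Il22ra1, the targeted gene, had 7 to 20 reads in each sh-ctrl library and 1 to 4 in each sh-Il22ra1 library. Reads in genes ranged from 13108494 to 15887448 per library. The share of reads without an alignment was 12.8% to 17.3% in sh-ctrl and 8.71% to 11.8% in sh-Il22ra1, so it moved with the groups, and its part in the results was not tested. The 8 beta-cell markers summed to 70200 to 107000 reads scaled to library size (counts per 1000000, CPM) in sh-ctrl and 62800 to 72000 in sh-Il22ra1. Markers of other cells were far lower. The 4 islet hormone genes of other endocrine cells summed to 243 to 294 CPM in sh-ctrl and 145 to 158 in sh-Il22ra1, mostly from Gcg. The 4 leukocyte markers summed to 18.3 to 26.4 and 5.35 to 7.82 CPM, mostly from Cd68, with the pan-leukocyte gene Ptprc at means of 0.0358 and 0.0902 CPM. The 4 fibroblast markers summed to 3.09 to 6.34 and 0.977 to 2.00 CPM, the 5 acinar and duct markers to 0.808 to 2.27 and 0.686 to 1.58 CPM, with Amy2a5 at 0 everywhere, and the 3 endothelial markers to 1.47 to 4.62 and 2.92 to 4.19 CPM. Of the 8 beta-cell markers, 5 fell, 1 rose and 2 did not pass the test described below, with log2 fold changes from -1.29 to 0.41. That is 75.0% called, against 51.9% of all tested genes (25.4% higher and 26.5% lower). In bulk RNA, fewer cells of a type and less RNA per cell cannot be told apart, and the part of these shifts in the results was not tested.

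Stretches of DNA are shown for the members on which the results turn and which the RefSeq promoter table (GRCm38.p6) covers. The first lies between the annotated starts of Slc25a29 and Slc25a47, a pair of head-to-head genes that moved in opposite directions. It is chr12:108835884-108836045, read on the plus strand, and none of the 4 motifs searched was found in it. The second lies upstream of Slc25a3, the phosphate carrier gene, outside its annotated transcripts. It is chr10:91124060-91124217, read on the minus strand, and its capitals mark a match to the motif of NRF1, a factor known for its binding sites at genes of the respiratory chain.
Slc25a29 to Slc25a47: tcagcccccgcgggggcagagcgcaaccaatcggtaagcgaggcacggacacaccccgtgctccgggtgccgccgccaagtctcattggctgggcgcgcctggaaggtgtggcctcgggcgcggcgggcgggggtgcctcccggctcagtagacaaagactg
Slc25a3: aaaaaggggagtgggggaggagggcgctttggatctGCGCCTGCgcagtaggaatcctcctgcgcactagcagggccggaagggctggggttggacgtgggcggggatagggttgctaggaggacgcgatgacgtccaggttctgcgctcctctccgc

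The motifs were searched on both strands from 250 bases before to 50 bases after each start. NRF1 (GCGCNTGC) was found in 8.70% of the 46 promoters of 36 matched members and in 9.61% of all 32851 promoters. The genes were Slc25a3, Slc25a31, Slc25a39 and Slc25a54. The motif of STAT factors (TTCNNNGAA) was found in 4.35% of the members' promoters, those of Slc25a36 and Slc25a54, and in 8.30% of all. The cyclic AMP response element (TGACGTCA) was found in 4.35%, those of Slc25a25 and Slc25a36, and in 1.79% of all. The motif of estrogen-related receptors (TCAAGGTCA) was found in none of the members' promoters and in 0.423% of all.

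Levels of different genes were compared per length, as CPM divided by the length of the reference transcript in kilobases (RPKM). On this scale the family was led by Slc25a39, a glutathione carrier gene, at 347.8 RPKM ± 46.4 (SD, n = 6) in sh-ctrl. It was followed by Slc25a5, which encodes the ADP/ATP exchanger ANT2, at 285.8 RPKM ± 21.8, and by Slc25a3 at 249.1 RPKM ± 20.6 (SD, n = 6 each). The sh-ctrl libraries of Slc25a39 (304.5 to 408.7 RPKM) and Slc25a5 (255.6 to 315.6) overlapped, as did those of Slc25a5 and Slc25a3 (223.8 to 286.5). Within each of the 6 sh-ctrl libraries, Slc25a39 was above Slc25a5 and Slc25a5 above Slc25a3. In sh-Il22ra1 the means were 400.1 RPKM ± 26.5 for Slc25a39, 314.1 ± 17.7 for Slc25a3 and 283.2 ± 15.5 for Slc25a5 (SD, n = 6 each), and Slc25a5 was below Slc25a3 in 6 of 6 libraries.

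A second tier in sh-ctrl held Slc25a1, the citrate carrier gene, at 145.5 RPKM ± 11.8, Slc25a11, for the oxoglutarate/malate carrier, at 130.2 ± 7.83, and Slc25a4, for the ADP/ATP exchanger ANT1, at 117.8 ± 13.9 (SD, n = 6 each). Slc25a1 was above Slc25a11 in 5 of 6 sh-ctrl libraries, and Slc25a11 above Slc25a4 in 5 of 6, with ranges that overlapped. The dicarboxylate carrier gene Slc25a10 came next at 61.5 RPKM ± 1.44 (SD, n = 6). Among tested members the lowest was Slc25a13, for the aspartate/glutamate carrier citrin, at 0.272 RPKM ± 0.120 (SD, n = 6). Its relative Slc25a12, for aralar, stood at 22.14 RPKM ± 0.801 (SD, n = 6), so nearly all aspartate/glutamate carrier mRNA came from 1 of the 2 genes in both groups.

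**Figure D1:**
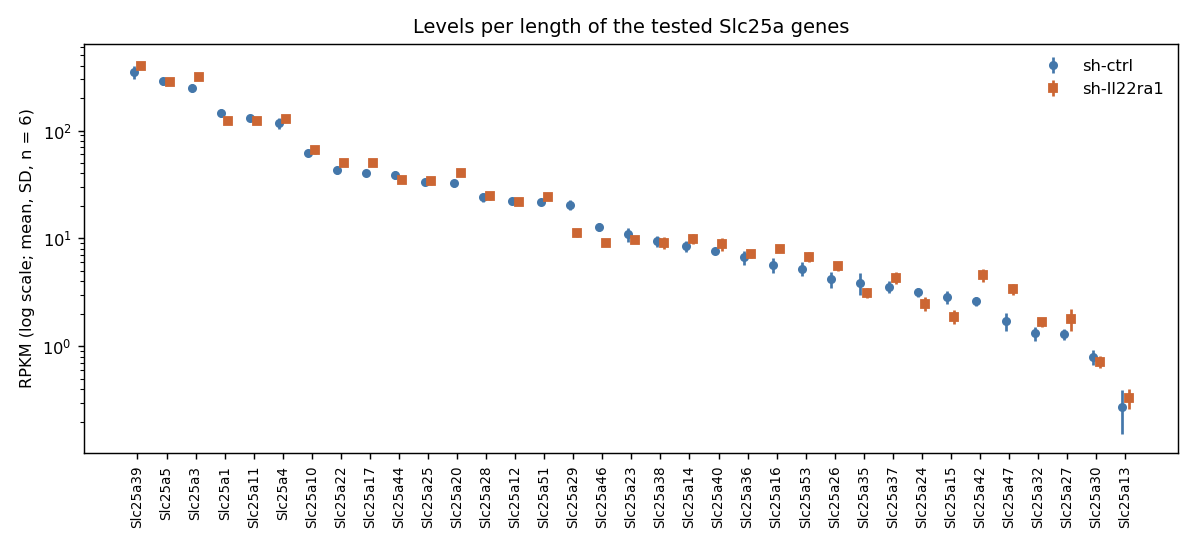
Levels per length of 35 tested Slc25a genes in RPKM on a log axis, ordered by the sh-ctrl mean; circles are sh-ctrl and squares sh-Il22ra1, with bars of 1 SD over 6 libraries. Slc25a39, Slc25a5 and Slc25a3 lead in both groups and Slc25a13 is lowest.

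The 11 untested members had 1 to 82 reads each over all 12 libraries. They were the testis ADP/ATP exchanger gene Slc25a31, the pyrimidine nucleotide carrier gene Slc25a33, the short ATP-Mg/phosphate carrier gene Slc25a41, the glutamate carrier gene Slc25a18, the oxodicarboxylate carrier gene Slc25a21, the ornithine carrier gene Slc25a2, and Slc25a34, Slc25a43, Slc25a45, Slc25a48 and Slc25a54. Slc25a33 had the most, with 30 reads in sh-ctrl and 52 in sh-Il22ra1, and Slc25a21 and Slc25a43 each had 0 and 1. They fell under the low-count filter and no comparison is given for them.

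Among the 36 tested members, 14 were higher and 7 lower in sh-Il22ra1 and 15 did not pass (quasi-likelihood test of edgeR, Benjamini-Hochberg adjusted over all 13102 tested genes, threshold 0.05). That is 58.3% called, against 51.9% of all tested genes (25.4% higher and 26.5% lower). In 8 members the ranges of the groups did not overlap, 4 in each direction, or 22.2% against 28.1% of all tested genes (13.5% higher and 14.6% lower). The share called and the share without overlap are near the background. By direction, 14 members rose and 7 fell, where 25.4% of all tested genes rose and 26.5% fell. The median log2 fold change was 0.11 over the tested members and -0.00427 over all tested genes. Changes were small: 17 of the 21 called members changed by less than 1.5-fold, and called genes had a median log2 change, whatever its sign, of 0.335 in the family and 0.429 over all genes. Summed over all 47 genes, the family held 3090 to 3416 CPM in sh-ctrl and 3361 to 3610 in sh-Il22ra1, or 0.315% to 0.341% and 0.341% to 0.356% of gene reads. These ranges overlapped.

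**Figure D2:**
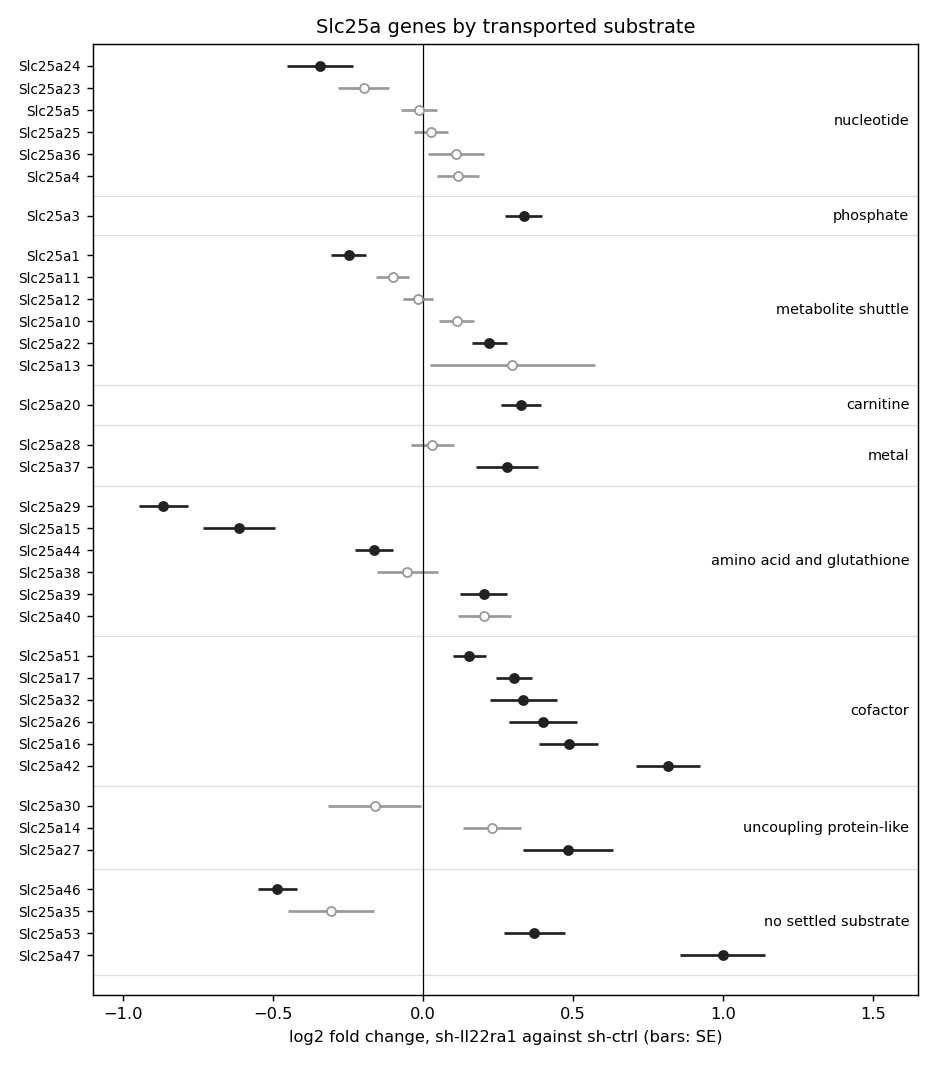
Log2 fold change (sh-Il22ra1 against sh-ctrl, x axis) of 35 tested Slc25a genes, grouped by transported substrate, with bars of 1 SE. Filled points passed the quasi-likelihood test of edgeR (adjusted p under 0.05), open points did not; Slc25a29 lies lowest at -0.87 and Slc25a47 highest at 1.00.

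Of 6 tested nucleotide carriers, 1 fell, none rose and 5 did not pass, with a median log2 fold change of 0.01. The share called was 16.7%, against 51.9% of all tested genes. Slc25a5 was at 316.9, 351.9 and 391.3 CPM (lowest, median and highest library) in sh-ctrl and 327.7, 350.1 and 376.1 CPM in sh-Il22ra1. The groups overlapped throughout, at a log2 fold change of -0.01 (SE 0.0606). With per-library offsets fitted to GC content and transcript length (the length and GC offsets) it passed, at -0.19 (edgeR adjusted p = 0.00801). RefSeq lists 2 pseudogenes under the name or a synonym of Slc25a5, neither among the counted symbols, so the assignment of its reads is uncertain. Slc25a4 was at 193.0, 224.2 and 271.5 CPM in sh-ctrl and 233.6, 247.1 and 255.1 CPM in sh-Il22ra1. Its sh-ctrl libraries reached both below and above all sh-Il22ra1 libraries, and the log2 fold change of 0.12 (SE 0.0691) did not pass. It did pass without sh-ctrl replicate 4, its highest library (0.16, edgeR adjusted p = 0.0205). It also passed without replicates 1 and 4, its highest sh-ctrl libraries (0.192). Without sh-ctrl replicate 2 it gave 0.0732, and with the length and GC offsets 0.0139 (edgeR adjusted p = 0.819).

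The calcium-regulated ATP-Mg/phosphate carriers, which adjust the adenine nucleotide pool of the matrix, were measured for 3 genes. Slc25a24 fell (log2 fold change -0.34, SE 0.110, edgeR adjusted p = 0.0141). Slc25a25, the most abundant of them per length at 33.2 RPKM in sh-ctrl, gave 0.02 (SE 0.0566). Slc25a23 gave -0.20 (SE 0.0859, edgeR adjusted p = 0.0604). Its 6 sh-Il22ra1 libraries lay between 31.5 and 32.6 CPM while the sh-ctrl libraries ran from 28.7 to 43.0 CPM. It passed without sh-ctrl replicate 4 (-0.27, edgeR adjusted p = 0.00292) and without replicates 1 and 4 (-0.336), its lowest sh-ctrl libraries. With the length and GC offsets it did not pass (-0.133, edgeR adjusted p = 0.131). The pyrimidine nucleotide carrier gene Slc25a36 gave 0.11 (SE 0.0940), and 0.20 with the length and GC offsets, where it passed (edgeR adjusted p = 0.00754). Without sh-ctrl replicate 4, its lowest library, it was 0.0141, and without sh-ctrl replicates 1 and 4 it was 0.00256.

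Slc25a3, whose carrier brings in the phosphate that ATP synthase needs and also carries copper, rose 1.26-fold. Its gene spans 91116574 to 91124059 of chromosome 10 (minus strand), with the stretch shown above just upstream. Its libraries were at 360.8, 395.8 and 461.9 CPM (lowest, median and highest) in sh-ctrl and 457.4, 512.1 and 543.9 CPM in sh-Il22ra1. The groups touched only through the highest sh-ctrl and the lowest sh-Il22ra1 library. The log2 fold change was 0.33 (SE 0.0624, edgeR adjusted p = 0.000211). With the length and GC offsets it was 0.18, still past the threshold.

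Of 6 tested carriers of the metabolite shuttles, Slc25a1 fell, Slc25a22 rose and 4 did not pass (33.3% called, 51.9% over all tested genes). Slc25a1 exports citrate for the synthesis of cytosolic acetyl-CoA. It was at 224.1, 235.2 and 272.1 CPM in sh-ctrl and 195.0, 203.7 and 213.3 CPM in sh-Il22ra1, so the groups did not overlap (log2 fold change -0.25, SE 0.0586, edgeR adjusted p = 0.00169). Slc25a22, a glutamate carrier gene, was at 114.3, 117.5 and 136.0 CPM in sh-ctrl and 129.5, 140.8 and 151.6 CPM in sh-Il22ra1 (0.22, SE 0.0592, edgeR adjusted p = 0.00435). Only the highest sh-ctrl library reached into the sh-Il22ra1 range.

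The carriers of the malate-aspartate shuttle, which moves the electrons of cytosolic NADH into mitochondria, did not pass. Slc25a12 was at 135.8, 139.6 and 149.4 CPM in sh-ctrl and 130.6, 139.4 and 144.8 CPM in sh-Il22ra1, with a log2 fold change of -0.02 (SE 0.0499), the smallest SE in the family. Slc25a13 was at 0.385, 0.803 and 1.45 CPM and 0.837, 0.964 and 1.43 CPM, on 74 and 94 reads in all, and gave 0.30 with the largest SE, 0.275 (0.161 to 0.482 when 1 library was left out). Slc25a11 was at 204.2, 227.2 and 236.8 CPM in sh-ctrl and 194.6, 208.5 and 218.1 CPM in sh-Il22ra1 (-0.10, SE 0.0554). The dicarboxylate carrier gene Slc25a10, not a part of this shuttle, was at 120.3, 124.5 and 128.3 CPM and 121.3, 130.9 and 148.3 CPM (0.11, SE 0.0583). Neither Slc25a11 nor Slc25a10 passed, but with the length and GC offsets both did (-0.18, edgeR adjusted p = 0.000958, and 0.16, edgeR adjusted p = 0.00802). The exons of Slc25a11 and Slc25a10 share 8.9% and 6.6% of their bases with genes on the other strand.

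Slc25a20 encodes the carnitine/acylcarnitine translocase, the step that brings long-chain fatty acids such as palmitate into the matrix for oxidation. It rose 1.25-fold, from 52.5, 58.0 and 63.7 CPM (lowest, median and highest) in sh-ctrl to 63.2, 72.7 and 78.6 CPM in sh-Il22ra1. The groups overlapped by 1 library on each side. The log2 fold change was 0.33 (SE 0.0655, edgeR adjusted p = 0.000420), and 0.19 with the length and GC offsets, still past the threshold.

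Of the mitoferrins, which import iron for heme and iron-sulfur clusters, Slc25a37 (mitoferrin 1) rose and Slc25a28 (mitoferrin 2) did not pass. Slc25a28 was at 32.1, 36.6 and 41.1 CPM in sh-ctrl and 34.7, 37.2 and 41.8 CPM in sh-Il22ra1 (log2 fold change 0.03, SE 0.0725). Slc25a37 was at 11.8, 15.1 and 16.6 CPM and 15.8, 17.5 and 22.8 CPM, with overlap (0.28, SE 0.103, edgeR adjusted p = 0.0288). That call ended without sh-ctrl replicate 4, 5 or 6 or without sh-Il22ra1 replicate 1, its highest library (edgeR adjusted p up to 0.0827).

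Amino acid carriers included the largest fall of the family. Slc25a29, which carries basic amino acids such as arginine and lysine, fell 1.82-fold. Its gene spans 108825873 to 108835883 of chromosome 12 (minus strand). The sh-ctrl libraries, replicates 1 to 6, were at 35.7, 37.8, 46.4, 38.0, 38.8 and 44.8 CPM and the sh-Il22ra1 libraries at 18.6, 22.6, 23.3, 23.5, 21.9 and 22.6 CPM. Every sh-Il22ra1 library lay below every sh-ctrl library, with a wide gap (log2 fold change -0.87, SE 0.0814, edgeR adjusted p = 8.22e-08).

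The ornithine carrier gene Slc25a15, on chromosome 8 from 22375551 to 22398597, fell 1.53-fold. Its sh-ctrl libraries were at 8.69, 9.66, 11.4, 7.87, 10.5 and 10.9 CPM and its sh-Il22ra1 libraries at 6.44, 5.42, 6.76, 7.80, 6.84 and 5.35 CPM. The groups did not overlap but came close, at 7.80 and 7.87 CPM (log2 fold change -0.61, SE 0.121, edgeR adjusted p = 0.000344). Slc25a44, for a carrier of branched-chain amino acids, fell by 0.16 on the log2 scale (SE 0.0625, edgeR adjusted p = 0.0348), a call that ended without sh-ctrl replicate 2 or 3, without any one of sh-Il22ra1 replicates 1, 2, 3, 4 and 6, or with no low-count filter (edgeR adjusted p up to 0.0987). The glycine carrier gene Slc25a38 gave -0.05 (SE 0.101).

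Of the glutathione carriers, Slc25a39 was at 513.1, 548.2 and 688.7 CPM in sh-ctrl and 609.9, 670.5 and 725.1 CPM in sh-Il22ra1. Its sh-ctrl libraries split, with replicates 1 (688.7) and 4 (682.3) inside the sh-Il22ra1 range and the other 4 at or below 553.4 CPM. It rose by 0.20 (SE 0.0782, edgeR adjusted p = 0.0371). Leaving out sh-ctrl replicates 1 and 4, its highest sh-ctrl libraries, enlarges the rise by construction and gave 0.315. The call ended without any one of sh-ctrl replicates 2, 3, 5 and 6 or sh-Il22ra1 replicates 1, 2, 4 and 6 (edgeR adjusted p up to 0.0835). Its relative Slc25a40 also gave 0.20 (SE 0.0889) and did not pass, but it did without sh-ctrl replicate 1, sh-Il22ra1 replicate 2 or 5, or sh-ctrl replicates 1 and 4 (edgeR adjusted p from 0.0336 to 0.0494).

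All 7 cofactor carriers were tested, and 6 rose and 1 fell, where 25.4% of all tested genes rose and 26.5% fell. The median log2 fold change was 0.33 against -0.00427 over all genes. Slc25a42, which imports coenzyme A, rose 1.76-fold. Its gene spans 70184340 to 70212305 of chromosome 8. Its sh-ctrl libraries were at 8.46, 9.60, 7.87, 8.48, 7.15 and 8.59 CPM and its sh-Il22ra1 libraries at 14.9, 16.3, 12.4, 11.9, 16.5 and 16.4 CPM. All sh-Il22ra1 libraries lay above all sh-ctrl libraries (log2 fold change 0.82, SE 0.107, edgeR adjusted p = 5.01e-06).

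The related gene Slc25a16 rose by 0.49 (SE 0.0984), also with no overlap, from 12.8 to 20.1 CPM in sh-ctrl and from 23.0 to 26.7 CPM in sh-Il22ra1. Slc25a17, a carrier of coenzyme A and other cofactors in the peroxisomal membrane, rose by 0.30 (SE 0.0602) with no overlap, and by 0.16 with the length and GC offsets, still past the threshold. The S-adenosylmethionine carrier gene Slc25a26 rose by 0.40 (SE 0.112), the folate and FAD carrier gene Slc25a32 by 0.33 (SE 0.112) and the NAD carrier gene Slc25a51 by 0.15 (SE 0.0545). Adjusted p in edgeR's test was at most 0.0237 for these 5. Slc25a32 missed the threshold when sh-ctrl replicates 1 and 4 were left out together (0.25, edgeR adjusted p = 0.0713). Slc25a51 missed it in the same setting (edgeR adjusted p = 0.0643) or without any one of sh-ctrl replicates 4 and 5 and sh-Il22ra1 replicate 6 (edgeR adjusted p up to 0.0899).

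**Figure D3:**
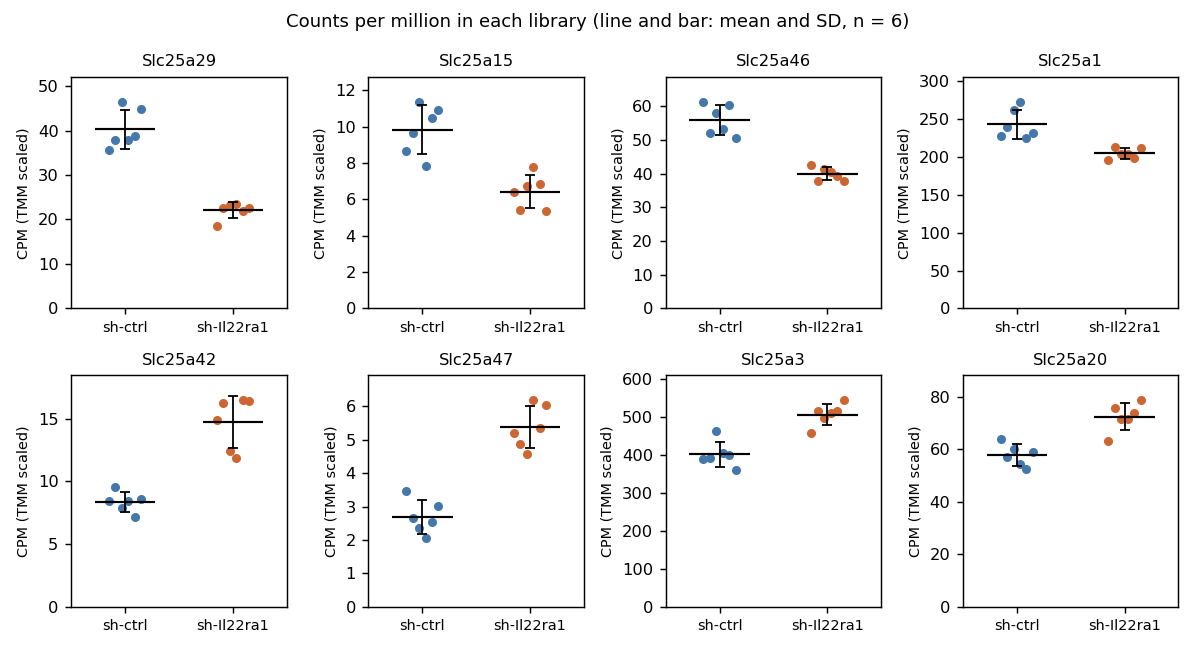
CPM in each library for 4 members that fell (top) and 4 that rose (bottom); points are libraries, lines and bars the mean and SD of 6. The groups are separate for all but Slc25a3 and Slc25a20, and Slc25a29 shows the widest gap among the falls.

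Among carriers named for their likeness to uncoupling proteins, Slc25a27 (UCP4) rose by 0.48 (SE 0.149, edgeR adjusted p = 0.0112), at 3.14 to 4.28 CPM in sh-ctrl and 4.07 to 7.46 CPM in sh-Il22ra1. Slc25a14 (UCP5) gave 0.23 (SE 0.0979) and Slc25a30 -0.16 (SE 0.154). Slc25a14 passed without sh-ctrl replicate 4 (0.26, edgeR adjusted p = 0.0239) and in 4 other alternatives, and gave 0.091 with the length and GC offsets (edgeR adjusted p = 0.344).

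Of 4 tested members placed here without a settled substrate, 2 rose, 1 fell and 1 did not pass. The share called was 75.0%, against 51.9% of all tested genes. Slc25a46, which sits in the outer membrane and takes part in mitochondrial dynamics, fell from 50.5 to 61.2 CPM in sh-ctrl to 37.7 to 42.6 CPM in sh-Il22ra1 (log2 fold change -0.49, SE 0.0654, edgeR adjusted p = 6.49e-06), with no overlap. Its exons share 7.1% of their bases with a gene on the other strand. Slc25a53 rose by 0.37 (SE 0.102, edgeR adjusted p = 0.00519). Slc25a35 gave -0.31 (SE 0.144). It shares 31.3% of its exon bases with Rangrf on the other strand, and it passed without sh-ctrl replicate 4 (-0.415, edgeR adjusted p = 0.00749), without replicates 1 and 4 (-0.447) and with the length and GC offsets (-0.423). Without sh-ctrl replicate 2 it gave -0.194 (edgeR adjusted p = 0.25).

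Slc25a47, an orphan carrier known mainly from liver, had the largest rise of the family, 2.00-fold, at a low level. The sh-ctrl libraries were at 3.46, 2.66, 2.36, 2.06, 2.54 and 3.03 CPM and the sh-Il22ra1 libraries at 5.20, 4.88, 4.57, 6.18, 5.34 and 6.04 CPM, on 235 and 484 reads in all. The groups did not overlap (log2 fold change 1.00, SE 0.142, edgeR adjusted p = 1.24e-05). Slc25a47 spans 108836046 to 108856815 of chromosome 12 (plus strand) and begins 162 bases beyond the start of Slc25a29, so the strongest rise and the strongest fall of the family were in adjacent genes. The stretch shown above is this gap. Of 5 annotated transcripts of Slc25a47, the 3 that begin near Slc25a29 are noncoding, and the 2 coding ones begin 15.2 kb from it. Counts per gene do not separate them.

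Other genes within 100 kb moved less. Yy1, a transcription factor gene, fell (log2 fold change -0.30, SE 0.0646), Wdr25 fell (-0.26, SE 0.0791) and Wars, for the cytosolic tryptophanyl-tRNA synthetase, rose (0.28, SE 0.0512), each with edgeR adjusted p of at most 0.00907. These neighbours were looked at after the values of Slc25a29 and Slc25a47 were seen.

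**Figure D4:**
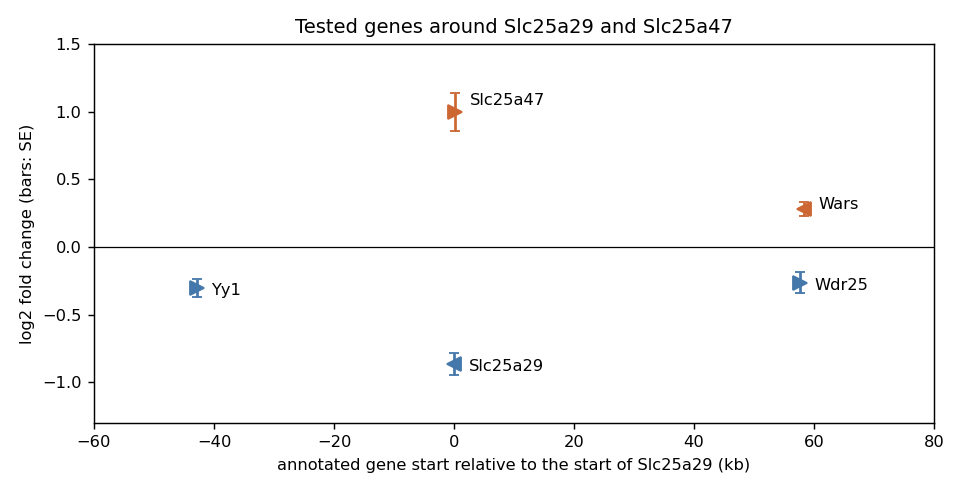
Log2 fold change (bars 1 SE) of the 5 tested genes within 100 kb of Slc25a29 against the distance of their annotated starts from its start in kb; triangles point in the direction of transcription. Slc25a47 (1.00) and Slc25a29 (-0.87) start 162 bases apart and lie farthest from 0; Slc25a47 is drawn at its outermost annotated start.

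Related carriers were also set against each other within a library, as the log2 ratio of their reads, which needs no scaling between libraries. Of 8 pairs listed, 6 had at least 10 reads on average in both genes, and p-values from a two-sided exact permutation test were adjusted over these 6. The ratio of Slc25a10 to Slc25a11 was -0.84 ± 0.0977 in sh-ctrl and -0.63 ± 0.0831 in sh-Il22ra1 (SD, n = 6 each; difference 0.21, exact permutation p = 0.00649, adjusted 0.0325). Reads of the dicarboxylate carrier were thus higher relative to those of the oxoglutarate carrier in sh-Il22ra1, while neither gene passed by itself. The ratio of Slc25a24 to Slc25a25 was -3.34 ± 0.151 and -3.71 ± 0.274 (SD, n = 6 each; difference -0.37, exact permutation p = 0.0108, adjusted 0.0325). Libraries of the groups overlapped in both ratios. The call for Slc25a10 to Slc25a11 ended without any one of sh-ctrl replicates 1, 3 and 5 or sh-Il22ra1 replicates 2, 4, 5 and 6 (adjusted exact permutation p up to 0.0779). That for Slc25a24 to Slc25a25 ended without any one of sh-ctrl replicates 1, 2, 3, 5 and 6 or sh-Il22ra1 replicates 2, 4, 5 and 6 (adjusted exact permutation p up to 0.0909).

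Ratios of the other pairs did not pass. Slc25a4 to Slc25a5 gave -0.65 ± 0.195 in sh-ctrl and -0.51 ± 0.0392 in sh-Il22ra1 (SD, n = 6 each; exact permutation p = 0.143, adjusted 0.224). Without sh-ctrl replicate 4, whose ratio of -0.34 was the highest of all 12, the difference was 0.20 (adjusted exact permutation p = 0.0130). Slc25a12 to Slc25a13 gave 7.42 ± 0.668 and 7.04 ± 0.254, Slc25a28 to Slc25a37 1.31 ± 0.291 and 1.07 ± 0.235, and Slc25a39 to Slc25a40 4.77 ± 0.165 and 4.78 ± 0.240 (SD, n = 6 each; adjusted exact permutation p from 0.224 to 0.892).

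**Figure D5:**
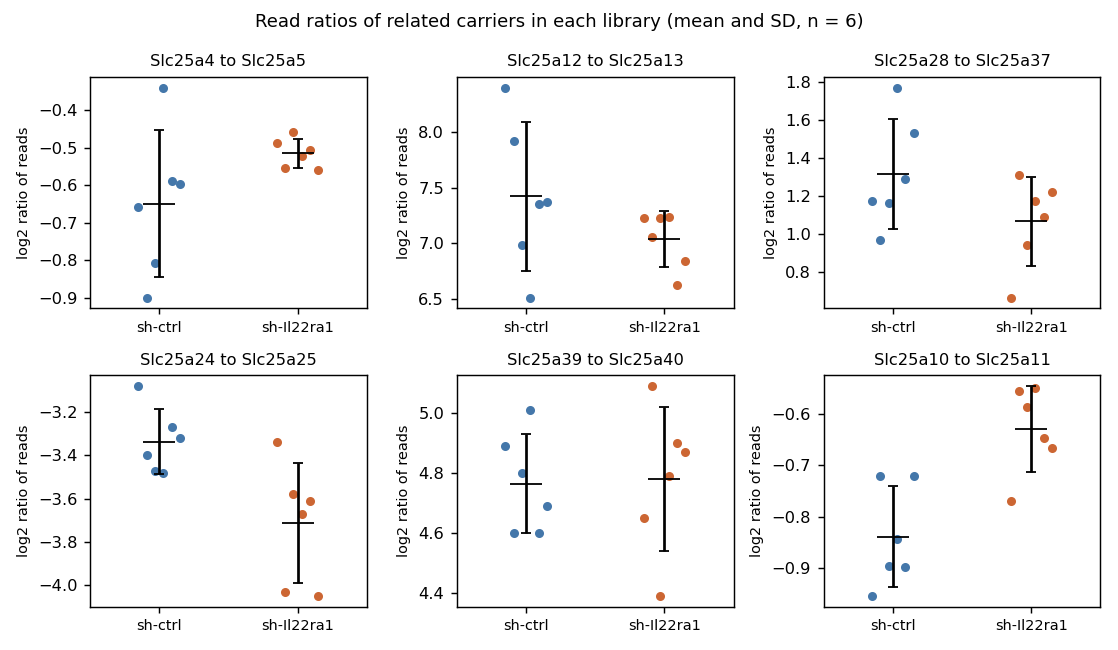
Log2 ratio of reads of 6 pairs of related carriers in each library, by group; points are libraries, bars the mean and SD of 6, and each panel has its own y axis. The Slc25a10 to Slc25a11 ratio is higher and the Slc25a24 to Slc25a25 ratio lower in sh-Il22ra1, while 1 sh-ctrl library stands above the rest for Slc25a4 to Slc25a5.

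Genes that work beside these carriers were described from lists chosen for their roles. Of 5 carriers of the same family with other symbols, 3 were tested and all 3 changed with no overlap, at a median log2 fold change of 0.27 (over all tested genes, 51.9% called, 28.1% without overlap and a median of -0.00427). Ucp2, an uncoupling protein gene of beta cells, fell (log2 fold change -0.21, SE 0.0547), while the outer membrane proteins Mtch1 (0.35, SE 0.0687) and Mtch2 (0.27, SE 0.0645) rose. Ucp2 gave -0.13 with the length and GC offsets, still past the threshold. Ucp1 and Ucp3 were not tested.

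Of the 4 enzymes of the malate-aspartate shuttle, 3 rose and 1 fell, with no overlap in any and a median log2 fold change of 0.37. Over all tested genes 51.9% were called and 28.1% did not overlap. The aminotransferase gene Got1 rose, with 97.8 CPM ± 5.82 in sh-ctrl and 138.7 ± 4.48 in sh-Il22ra1 (SD, 6 libraries each; 0.50), the dehydrogenase genes Mdh2 (0.39) and Mdh1 (0.34) rose, and the mitochondrial aminotransferase gene Got2 fell (-0.18). Got2 shares 9.0% of its exon bases with a gene on the other strand. Around citrate export 4 of 7 enzymes rose, 2 fell and 1 did not pass, at a median of 0.19. Pcx, for pyruvate carboxylase (0.37), Me3 (0.38) and Idh1 (0.28) rose and Cs, for citrate synthase, fell with Slc25a1 (-0.22). The groups overlapped for Cs but not for Pcx, Me3 and Idh1. Idh1 gave 0.18 with the length and GC offsets. Adjusted p in edgeR's test was at most 0.0101 for these genes.

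Beside the carnitine carrier, 1 of 5 tested enzymes rose, 2 fell and 2 did not pass, at a median log2 fold change of 0.02. Crat, for carnitine acetyltransferase, rose (log2 fold change 0.45, SE 0.0592). Cpt1a (-0.25, SE 0.0711) and Cpt1c (-0.18, SE 0.0544), named as carnitine palmitoyltransferases, fell, opposite to Slc25a20. The groups overlapped for both Cpt1a and Cpt1c. Crat and Cpt1c share 8.7% and 6.5% of their exon bases with genes on the other strand. Among 6 genes of iron-sulfur cluster and heme synthesis, 4 rose, 1 fell and 1 did not pass, at a median of 0.25. Here 83.3% were called, against the same 51.9% of all tested genes. Nfs1 (0.46), Iscu (0.32) and the ferrochelatase gene Fech (0.30) rose. Nfs1 shares 11.2% of its exon bases with other genes. For Iscu the groups overlapped, and the log2 fold change was 0.21 with the length and GC offsets. Adjusted p in edgeR's test was at most 0.00923 for the genes named.

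The list for the import of carrier proteins held outer membrane receptors, the outer membrane pore gene Tomm40 and the small Tim chaperones of the intermembrane space. It also held Timm22 and Agk of the inner membrane. The list had 8 of 12 tested members up, none down and 4 not past the threshold, Timm22 among these 4, at a median log2 fold change of 0.28. Over all tested genes 25.4% were up and 26.5% down. In 3 of the 12 the groups did not overlap, or 25.0% against 28.1% of all tested genes. Timm10 rose, with 29.5 CPM ± 7.99 in sh-ctrl and 45.1 ± 6.07 in sh-Il22ra1 (SD, 6 libraries each; 0.62), and Tomm22 (0.38), Timm8b (0.38) and Tomm70a (0.24) rose as well (edgeR adjusted p at most 0.00208). The groups of Timm10 and Timm8b overlapped. With the length and GC offsets Timm10 gave 0.44, Timm8b 0.14 and Tomm22 0.24, all still past the threshold. Timm8b shares 15.6% of its exon bases with Nkapd1. Of 4 outer membrane channels, at a median of 0.04, Vdac1 fell (-0.30, SE 0.0638, edgeR adjusted p = 0.000771) and the others did not pass. The groups of Vdac1 overlapped.

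Of 17 other inner membrane transporters tested, 3 rose, 5 fell and 9 did not pass, at a median log2 fold change of -0.03. The share called was 47.1%, against 51.9% of all tested genes (25.4% higher and 26.5% lower). Groups did not overlap in 6, of which 2 were higher and 4 lower, or 35.3% against 28.1% of all tested genes. Sfxn1, for a mitochondrial serine transporter, fell, with 87.9 CPM ± 2.10 in sh-ctrl and 45.0 ± 2.26 in sh-Il22ra1 (SD, 6 libraries each; -0.96). Abcb8, a transporter of the ABC family (-0.62), and Mcu, the pore of the calcium uniporter (-0.47), fell too. Adjusted p in edgeR's test was at most 2.96e-05 for these 3, and none of their groups overlapped. Sfxn2 fell with overlap of the groups (-0.51, SE 0.0955, edgeR adjusted p = 0.000215). Sfxn3 fell with no overlap (-0.28, SE 0.076, edgeR adjusted p = 0.00535). Letm1 rose (0.30, SE 0.057, edgeR adjusted p = 0.00025), also with no overlap.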

How the data were processed

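The authors deposited whole-number read counts per gene symbol, 1 file per library, with HISAT2 2.0.5, HTSeq and mm10 named in the submitters' processing notes; annotation and strand setting were not given in the sources used here. Rows of unassigned reads, 23.5% to 31.7% of a file, stayed out of library sizes and tests. The 12 libraries held 6 per group, by title. Counts were fitted whole in R 4.3.3 with edgeR 4.0.16 (filterByExpr, minimum count 10, minimum total 15; TMM; quasi-likelihood test, two-sided, Benjamini-Hochberg adjustment over 13102 genes, threshold 0.05). The biological coefficient of variation was 0.105, and the fit was tested on simulated data. No library was a duplicate: the closest within a group differed with chi-square/df = 3.95. CPM use TMM-scaled library sizes; RPKM divide them by the length of 1 GENCODE M21 (GRCm38) transcript per gene. Ratios used a pseudocount of 0.5 and all 924 splits of 6 against 6.

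Named genes were members called with at least 1 CPM and a log2 change of at least 0.5, the 3 highest per length, 12 carriers whatever their values, other members by fold change, and up to 4 called partners per list. More were named among the other inner membrane transporters. Members, lists and tests were chosen with earlier results of these data known. The alternatives tried were DESeq2 1.42.0, limma-voom (limma 3.58.1), scaling by RLE or by the upper quartile, no filter, a mean of 1 CPM, a replicate block, leaving out libraries, and per-library spline offsets (4 degrees of freedom) for length and GC content. A total of 1 member and 2 partner genes are not reported here; counts and medians include them.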

Additional observations from a re-analysis of the deposited data

Results flagged for a closer look

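In 7 of 84 groups of 6 libraries (36 members and 6 ratios in each group), 1 library lay so far from the others that its gap to the nearest exceeded 0.625 of the group's range; chance gives this for about 1 in 20 groups. Of the 7, 4 were in sh-Il22ra1 replicate 1. Slc25a29 was lowest there, at 18.6 CPM against 21.9 to 23.5 in the other sh-Il22ra1 libraries, and Slc25a38 was lowest too, at 12.3 CPM against 16.03 to 18.04. Slc25a37 was highest there, at 22.8 CPM against 15.8 to 18.1, as was Slc25a27, at 7.46 CPM against 4.07 to 5.27. Slc25a32 was low in sh-Il22ra1 replicate 4, at 7.80 CPM against 10.04 to 10.49. In sh-ctrl, Slc25a36 was low in replicate 4, at 24.6 CPM against 35.5 to 39.0, and Slc25a17 in replicate 6, at 61.5 CPM against 69.5 to 73.2.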

How the results depend on the processing

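Across 21 alternatives the number of members called higher ranged from 11 to 16 and lower from 6 to 10, or 11 to 15 and 6 to 9 when 1 library was left out. Of the called members, 10 of 14 higher and 6 of 7 lower passed in every alternative, and all 21 kept their sign. The labels do not say that replicate numbers pair the libraries. Same-numbered libraries correlated at -0.0328 to 0.229, and 1 of 6 numbers matched itself best, so a weak pairing stays possible. With a replicate block 15 members were called higher and 7 lower. Sign flips over same-numbered pairs cannot decide on the 2 ratio calls. Every same-numbered difference was positive for Slc25a10 to Slc25a11 and negative for Slc25a24 to Slc25a25. Both ratios were thus at the smallest p that sign flips can give, 0.0312. Adjusted over the 6 ratios, this exact p was 0.0938, past the threshold although the signs all matched.

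Signs turned only for values that had not passed. Leaving out 1 library gave log2 fold changes of -0.0865 to 0.0176 for Slc25a38, -0.0388 to 0.00288 for Slc25a12, -0.00679 to 0.0648 for Slc25a28 and -0.0462 to 0.0174 for Slc25a5, and differences of -0.0464 to 0.0931 for the ratio of Slc25a39 to Slc25a40. Slc25a12 gave 0.0787 with the length and GC offsets and Slc25a25 gave -0.012 without sh-ctrl replicates 1 and 4. The cause was not tested. Depth limits the 11 untested members and, among those tested, Slc25a13 and Slc25a30, which have the largest SEs.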
